A study of Sus scrofa and Bos taurus with 31 samples.

Results

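The genes of 7 apolipoproteins, APOA1, APOC3, APOA4, APOA5, APOB, APOE and APOH, were examined in the open chromatin of 8 pig tissues. They were taken by name from the 20674 protein-coding genes in the RefSeq annotation of the Sscrofa11.1 assembly, and each gene was read as a window of its gene body with 10 kb on either side. Apolipoproteins are the protein part of lipoproteins, the particles that carry triglyceride and cholesterol through blood. They hold the particle together, bind its receptors, and switch on or hold back the enzymes that unload it. Liver and intestine make most of them, apolipoprotein E is also made by astrocytes and macrophages, and intestine was not among the tissues.

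ATAC-seq, in which a transposase cuts DNA that is not packed into nucleosomes, was run on frozen nuclei of liver, spleen, lung, adipose, skeletal muscle and 3 brain tissues, cerebral cortex, cerebellum and hypothalamus. Each tissue came from pigs P348 and P350, which the study's methods describe as castrated male Yorkshire littermates that were sexually mature, and the labels name no treatment. This gave 16 pig libraries of the 31 libraries in the series, and a separate peak list for each, a peak being a stretch of the genome with more reads than the background around it. Both animals are littermates, so the spread between them covers 1 family.

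The 16 lists held 99960 to 217308 peaks and covered 64.1 to 156 Mb, and liver of P348 covered the least. They hold no read counts, and no counting interval is given. The study reports read totals for its pig ATAC-seq libraries, but sequencing depth was not taken into account here. To compare lists of unequal length, the bases of a window lying in peaks were divided by all peak bases of that library, and this peak density is given in bases per Mb. Windows differ in length, so density was compared between tissues and not between genes. In bulk nuclei, fewer cells with an open site and a site less often open in every cell cannot be told apart. The summed density of 4 hepatocyte genes (ALB, TTR, SERPINA1 and FGB) was 172 and 274 in the liver libraries and 20.1 to 94.6 in the other 14. SERPINA1 did not follow this order, at 14.9 and 18.7 in liver and a median of 21.9 elsewhere. Macrophage genes (CSF1R, CD68 and MARCO) summed to 110 and 156 in liver and 64.9 to 216 elsewhere, and adipocyte genes (ADIPOQ, PLIN1 and LEP) to 96.9 and 106 in liver and 13.6 to 113 elsewhere. Their part in the results below was not tested.

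Liver had the highest mean density for each of the 7 windows, but the share of all genes with their highest mean in liver was not counted. Both liver libraries lay above all 14 others for 4 of them (APOA1, APOC3, APOA4 and APOB), a pattern that 1.18% of 19638 genes with a peak in at least 2 libraries shared. In no other tissue did both libraries exceed all the rest for any of the 7 genes, but the share of all genes with that pattern was not counted for those tissues. A peak lay within 2 kb of a transcription start site (TSS) in both liver libraries for 5 of 7 genes, against 73.4% of all 20674 genes, so this count alone does not set them apart. APOB counts through the downstream of its annotated starts, and with the 5′ end of each gene record alone the count was 4. APOE was read from the 5′ end of a record that is marked as partial there. For APOC3 and APOH such a peak was present in both liver libraries and in none of the other 14, which held for 22 of 20674 genes (0.106%). The plot of peak density by library shows the liver points and their distance from the other tissues.

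**Figure D1:**
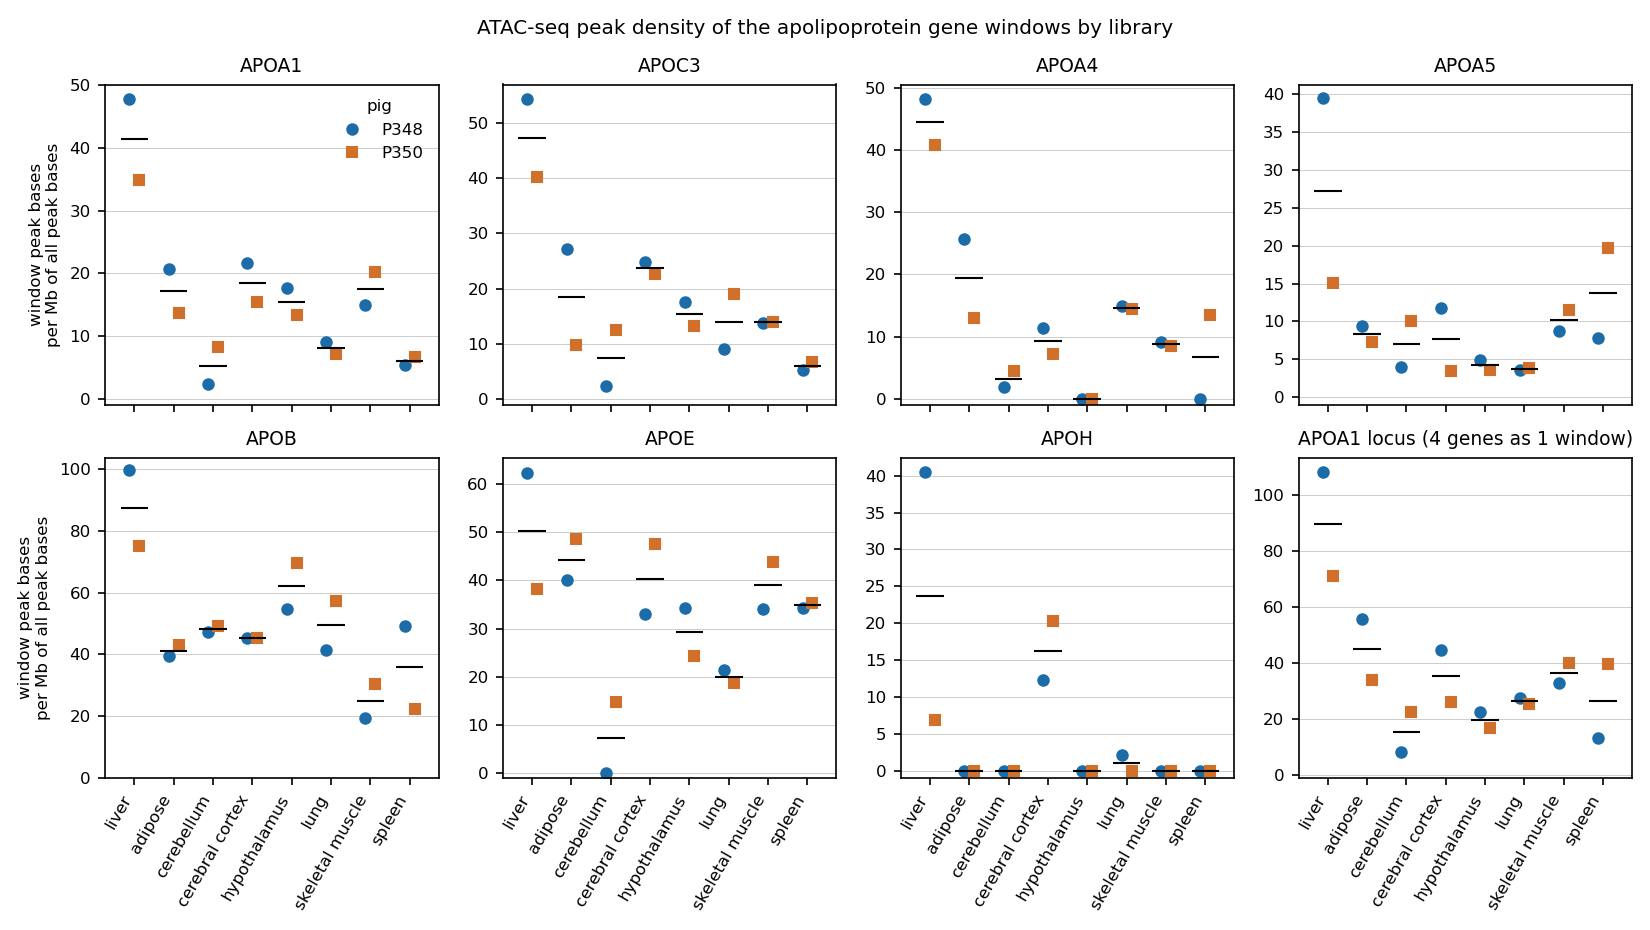
Peak density of each gene window (bases in peaks per Mb of all peak bases of the library, vertical axis) in 8 tissues (horizontal axis), with 1 point per library, circles for P348, squares for P350 and a bar for the mean of both animals. Both liver points lie above all other points for APOA1, APOC3, APOA4, APOB and the joined APOA1 locus, while the APOA5, APOE and APOH points of liver overlap those of other tissues.

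APOA1, APOC3, APOA4 and APOA5 lie in 1 cluster on chromosome 9. APOA1 is the main protein of high density lipoprotein, APOC3 holds back lipoprotein lipase and the uptake of remnants, APOA4 travels on chylomicrons and high density lipoprotein, and APOA5 promotes triglyceride clearance. APOA1 lies at chr9:44216481-44218360 on the minus strand, APOC3 at chr9:44211171-44213538 on the plus strand, APOA4 at chr9:44201587-44204072 and APOA5 at chr9:44177834-44180880, both on the minus strand. The lncRNA gene LOC106504887 runs across APOA4, ZPR1 overlaps the end of APOA5, and SIK3 ends 4.9 kb from APOA1. The windows of APOA1, APOC3 and APOA4 overlap and share peaks, so their densities are not independent measurements.

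Read as 1 locus with 10 kb on either side, the cluster had densities of 108 (P348) and 71.1 (P350) in liver. Its other libraries ran from 8.22 in cerebellum of P348 over a median of 26.8 to 55.9 in adipose of P348. Both liver values lay above all others, with 10 and 9 peaks in liver and 2 to 9 elsewhere. This order depended on the scaling, since adipose of P348 held 6986 unscaled peak bases, against 6956 (P348) and 6196 (P350) in liver. The log2 difference, liver minus the rest, was 1.70, and an exact two-sided permutation test over the 120 choices of 2 of 16 libraries gave p = 0.0167, the smallest it can give. Exchanging liver with other tissues within each animal gave an exact p = 0.0313, again the smallest possible with 64 choices. Both tests exchange single libraries and not whole tissues, so they treat the libraries of a tissue as if they were independent. Adipose followed with a mean of 44.9 ± 15.5 (SD, n = 2), skeletal muscle with 36.4 ± 5.19 (SD, n = 2) and cerebral cortex with 35.4 ± 13.2 (SD, n = 2), whose ranges overlapped. Hypothalamus (19.7 ± 3.97) and cerebellum (15.4 ± 10.2; SD, n = 2 each) were lowest.

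The peaks of the 16 libraries merged into 19 regions across the cluster. Of these, 9 were open in both liver libraries, 2 to 5 in both libraries of any other tissue, and 1 in all 16. The latter lay inside ZPR1, a zinc finger protein gene expressed widely, and within 2 kb of an annotated start of that gene. Fold enrichment over background ran there from 2.92 in adipose to 9.38 in cerebral cortex, with 4.14 and 4.39 in liver. The liver folds there lay within the range of the other tissues. Across the cluster, APOB, APOE and APOH together, 5 of 51 regions were open in both liver libraries and in no other, whereas 0.782% of all 533944 merged pig regions were so. The same count was 1 of 51 for skeletal muscle, beside 2.00% of all regions. It was 0 for each of the other 6 tissues, where the share of all regions ran from 0.0745% in hypothalamus to 3.56% in cerebellum.

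**Figure D2:**
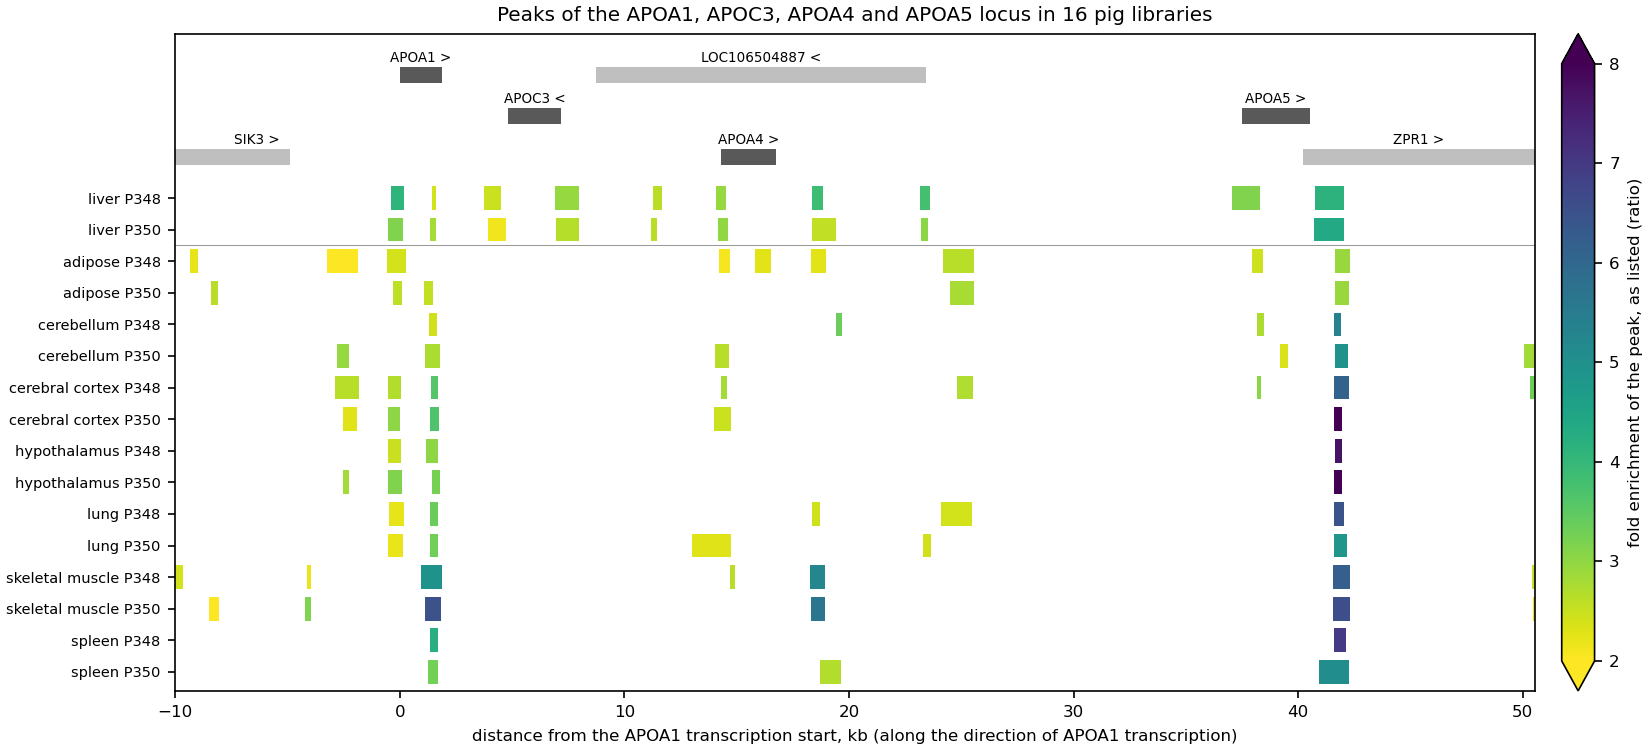
Peaks of 16 libraries (rows, liver on top) over the cluster, placed by distance from the APOA1 TSS in kb (horizontal axis), with colour for the listed fold enrichment (ratio). Grey bars on top mark genes, dark for the apolipoproteins, with the arrow for the direction of transcription. The 3 regions between 3 and 12 kb that appear in the liver rows alone include the APOC3 start, and the column near 42 kb, at ZPR1, is filled in all 16 rows.

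APOC3 had densities of 54.4 (P348) and 40.2 (P350) in liver. The other 14 libraries had a lowest value of 2.35, a median of 13.6 and a highest value of 27.1. Of the 3 regions of the cluster that were open in liver alone, APOC3 was the nearest of the 7 genes for 2 and APOA4 for 1. The first, chr9:44210364-44211457, covered 3 of the 4 annotated starts of the gene, with folds of 2.95 and 2.67. The second, chr9:44213631-44214601, began just past the end of APOC3, with folds of 2.49 and 2.13. The third, chr9:44206686-44207171, lay in an intron of LOC106504887, 2614 bp upstream of the APOA4 start, with folds of 2.61 and 2.61. These folds were modest beside those at ZPR1. The peak at the APOC3 start passed a q-value of 0.0001 in P348 (−log10 q = 5.96) and not in P350 (3.67).

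The 300 bases before the first APOC3 start (chr9:44210871-44211170, plus strand, Sscrofa11.1) are shown because both liver libraries, and no other, had a peak there. Capitals mark a match to CAAAGGTCA, part of a paired site called DR1 that HNF4 and other nuclear receptors bind, here on the opposite strand. The centres of the other regions open in liver alone follow, 200 bases each on the plus strand, at chr9:44206904-44207103 beside APOA4 and chr9:44214041-44214240 past APOC3.
APOC3 promoter: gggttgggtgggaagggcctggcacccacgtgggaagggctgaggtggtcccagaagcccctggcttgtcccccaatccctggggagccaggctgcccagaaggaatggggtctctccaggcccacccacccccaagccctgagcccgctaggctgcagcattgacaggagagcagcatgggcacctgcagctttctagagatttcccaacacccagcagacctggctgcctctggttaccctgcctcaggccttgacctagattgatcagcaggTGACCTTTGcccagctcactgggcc
Region upstream of APOA4: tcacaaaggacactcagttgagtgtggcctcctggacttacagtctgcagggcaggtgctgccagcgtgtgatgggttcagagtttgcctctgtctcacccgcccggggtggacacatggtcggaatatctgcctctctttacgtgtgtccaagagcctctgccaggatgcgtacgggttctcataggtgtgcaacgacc
Region past the end of APOC3: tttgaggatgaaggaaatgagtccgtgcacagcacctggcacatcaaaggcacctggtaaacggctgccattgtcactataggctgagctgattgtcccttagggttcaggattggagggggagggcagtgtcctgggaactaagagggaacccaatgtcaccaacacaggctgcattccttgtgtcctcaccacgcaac

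Each sequence was searched on both strands for CAAAGTCCA (HNF4), GTTAAT (an HNF1 site in part), TGTTTAC (FOXA) and TTGCNNAA (C/EBP). Added after the sequences had been read were CAAAGGTCA (DR1 in part) and TATAAA (the TATA box). The TATA box is bound by the general transcription machinery and the other letters by factors that are abundant in liver cells, and a match does not show binding. The DR1 letters were found in 0.310% of 20666 promoters of 300 bases. Among the 6 genes whose promoters were searched, APOC3 alone matched them. The start of APOE was not searched, because its record is marked as partial at that end. No match to the 6 motifs was found in the centres of the regions next to APOA4 and past APOC3.

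APOA1 had densities of 47.9 (P348) and 34.9 (P350) in liver, and 2.35 to 21.6 with a median of 13.5 in the other 14 libraries. Cerebral cortex was next at 18.5 ± 4.40 (SD, n = 2), and its range overlapped those of skeletal muscle and adipose. Its start was not particular to liver, since a peak within 2 kb was present in all 16 libraries. A region over the start itself, chr9:44218069-44218908, was open in 10 libraries, including both animals of adipose, cerebral cortex, hypothalamus, liver and lung. Its fold was 4.10 in liver of P348 and 3.13 in P350, against 2.19 to 3.13 in the other 8. A second region inside the gene, chr9:44216479-44217396, was open in 15 libraries with the highest folds in skeletal muscle, 4.96 and 6.48, and only 2.42 and 2.80 in liver. The promoter of APOA1 (chr9:44218361-44218660, minus strand) holds 11 CpG and matched none of the 6 motifs. It is shown for contrast with that of APOC3, which holds 2 CpG, the median of all promoters being 13.
APOA1 promoter: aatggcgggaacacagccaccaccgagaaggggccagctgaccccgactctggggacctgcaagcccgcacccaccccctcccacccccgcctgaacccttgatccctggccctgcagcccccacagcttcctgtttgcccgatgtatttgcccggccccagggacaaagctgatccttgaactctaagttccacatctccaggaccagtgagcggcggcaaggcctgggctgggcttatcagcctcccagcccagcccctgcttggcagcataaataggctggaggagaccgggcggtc

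APOA4 had 48.2 (P348) and 40.9 (P350) in liver. The other libraries ran from 0, in both hypothalamus libraries and in spleen of P348, over a median of 8.75 to 25.8 in adipose of P348. A peak lay within 2 kb of its start in both liver libraries and in 6 others. Beyond the start, a region at chr9:44194727-44195197 was open in both liver libraries (folds 3.78 and 3.05) and in lung of P350 (2.43). A further region at chr9:44198672-44200089 was open in 8 libraries, with folds of 5.22 and 5.68 in skeletal muscle and 3.88 and 2.57 in liver. The liver windows thus shared this region with muscle, where it was the stronger peak.

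APOA5 had 39.5 (P348) and 15.04 (P350) in liver, so the livers differed by more than the whole range of the other 14 libraries. The remaining libraries ran from 3.50 to 19.7 with a median of 7.55, and spleen of P350 was the library above liver of P350. The wide liver value of P348 came with a peak of 1224 bp over the APOA5 start, where P350 had none. Peaks within 2 kb of its start were present in 5 libraries, 1 of them liver.

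Other regions of the cluster were open in both animals of another tissue and in neither liver. In adipose, chr9:44192785-44194274, between APOA4 and APOA5, had folds of 2.64 and 2.80, and was also open in 1 library each of cerebral cortex and lung. In cerebral cortex, chr9:44220180-44221608, between APOA1 and SIK3, had folds of 2.64 and 2.29, and was shared with single libraries of adipose, cerebellum and hypothalamus. Skeletal muscle had chr9:44222309-44222573 to itself, 3949 bp before the APOA1 start, with folds of 2.19 and 3.16. It also had chr9:44167560-44168318, in ZPR1, with folds of 2.56 and 2.24, shared with 1 library each of cerebellum and cerebral cortex. The cluster therefore held sites open outside liver on either side of APOA1.

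APOB is the structural protein of very low and low density lipoprotein and the ligand of the LDL receptor. It lies at chr3:117250096-117316200 on the plus strand, between the lncRNA genes LOC110260049 and LOC110260050. Its density was 99.7 (P348) and 75.1 (P350) in liver, against 19.3 to 69.6 with a median of 45.3 in the other 14 libraries. Hypothalamus came next, at 62.2 ± 10.5 (SD, n = 2), followed by lung at 49.4 ± 11.2 (SD, n = 2), and skeletal muscle was lowest at 24.9 ± 7.94 (SD, n = 2). Liver did not overlap any of them, but the ratio of liver to the other libraries, 1.99, was below those of the cluster genes, 3.29 to 5.04.

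The annotation gives APOB starts at chr3:117250096 and, further into the gene record, at chr3:117275981. Which of them pig liver uses is not known from peak lists. A peak covered the downstream start in all 16 libraries, with folds of 5.16 and 5.39 in liver and 2.79 to 4.40 elsewhere. The upstream start had no liver peak within 2 kb, while 9 libraries of other tissues had one, with the highest folds in skeletal muscle (3.97 and 6.002). The sequences before both starts are shown because the open one and the one without a liver peak differ in composition. The stretch before the upstream start (chr3:117249796-117250095) has 38.3% GC and 0 CpG, and that before the downstream start (chr3:117275681-117275980) has 68.3% GC and 21 CpG. Capitals in the latter mark matches to the C/EBP and TATA motifs, which 10.4% and 12.7% of all promoters hold.
APOB promoter, upstream start: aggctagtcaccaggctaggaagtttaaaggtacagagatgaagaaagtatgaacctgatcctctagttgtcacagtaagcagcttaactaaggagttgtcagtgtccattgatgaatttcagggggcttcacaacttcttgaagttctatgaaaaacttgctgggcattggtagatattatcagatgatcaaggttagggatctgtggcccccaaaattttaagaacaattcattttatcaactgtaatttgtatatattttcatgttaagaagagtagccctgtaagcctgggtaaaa
APOB promoter, downstream start: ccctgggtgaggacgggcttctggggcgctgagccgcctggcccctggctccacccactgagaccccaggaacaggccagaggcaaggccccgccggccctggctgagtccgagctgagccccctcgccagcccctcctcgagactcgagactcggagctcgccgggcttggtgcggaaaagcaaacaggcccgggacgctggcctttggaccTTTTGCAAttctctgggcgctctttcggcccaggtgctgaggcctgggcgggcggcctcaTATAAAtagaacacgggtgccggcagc

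The APOB window held 26 regions, of which 7 were open in both liver libraries and 1 in all 16. The fold at the downstream start was the highest of the window in liver of P350. In P348 higher folds were found in introns between both starts, at chr3:117258252-117258598 (6.79 and 3.88) and chr3:117265189-117265446 (6.66 and 3.83). Both lung libraries shared the former, with folds of 4.84 and 4.01, and lung of P348 shared the latter with 3.87. The region open in liver alone, chr3:117245180-117245398, lay in an exon of LOC110260049, 4698 bp before the upstream start, with folds of 3.88 and 3.10. Its central 200 bases (chr3:117245186-117245385, plus strand) are printed as the distal site of APOB that liver alone had, and they matched none of the 6 motifs.
Region before APOB: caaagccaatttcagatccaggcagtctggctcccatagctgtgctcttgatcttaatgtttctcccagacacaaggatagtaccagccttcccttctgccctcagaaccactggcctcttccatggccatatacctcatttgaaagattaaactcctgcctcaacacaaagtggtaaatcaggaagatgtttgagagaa

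APOE, the ligand for remnant uptake by liver and the main lipid carrier of the brain, lies at chr6:51373113-51375333 on the plus strand, 3.2 kb past TOMM40. Its density was 62.4 (P348) and 38.3 (P350) in liver, and 0 to 48.6 with a median of 34.2 in the other 14 libraries. The liver of P350 lay below both adipose libraries and 1 library each of cerebral cortex and skeletal muscle, so liver did not stand apart. The lowest tissue was cerebellum, with 0 in P348 and 14.8 in P350, followed by lung at 20.0 ± 1.88 (SD, n = 2). A region 3497 bp past the APOE start, chr6:51376610-51379169, was open in 15 libraries, all but cerebellum of P348. Its folds were highest in skeletal muscle (5.52 and 6.42) and were 4.34 and 3.86 in liver. Peaks from within TOMM40 to just before APOE, merged into a region of 6325 bp, were present in 15 libraries too. They did not all reach APOE, and in adipose, hypothalamus and skeletal muscle of P348 they lay within TOMM40. The peak of cerebral cortex of P350 alone reached to 47 bp before APOE. A peak lay within 2 kb of the annotated APOE start in 6 libraries, 1 of them liver, and none covered that position. The gene record is marked as partial at this end, so the position may not be the transcription start. None of the 4 regions of the window was open in liver alone.

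APOH, or beta-2-glycoprotein I, binds phospholipids and lipoproteins in plasma, and lies at chr12:12827195-12839172 on the minus strand with no other gene in its window. Its density was 40.4 (P348) and 6.90 (P350) in liver, 12.2 and 20.3 in cerebral cortex, 2.15 in lung of P348, and 0 in the other 11 libraries. The liver of P350 therefore lay below both cortex libraries. Its window held 2 regions. The first (chr12:12837176-12839499) was open in liver alone, with folds of 4.05 and 3.66. The P348 peak measured 2287 bp and covered the start, while the P350 peak measured 251 bp and lay just before the start. The other lay past the end of the gene (chr12:12824239-12826389) and was open in liver (4.51 and 4.43), in cerebral cortex (3.71 and 3.52) and in lung of P348 (3.50). The promoter (chr12:12839173-12839472, minus strand) is shown because the P350 peak lay almost wholly within it. It has 46.3% GC and 5 CpG, and capitals mark GTTAAT, which 7.74% of promoters hold.
APOH promoter: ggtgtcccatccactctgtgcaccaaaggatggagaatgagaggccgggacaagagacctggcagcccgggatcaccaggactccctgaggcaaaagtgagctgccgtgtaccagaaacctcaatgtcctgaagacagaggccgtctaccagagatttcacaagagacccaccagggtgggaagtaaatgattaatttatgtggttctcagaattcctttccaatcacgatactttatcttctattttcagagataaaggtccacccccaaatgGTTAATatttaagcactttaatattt

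**Figure D3:**
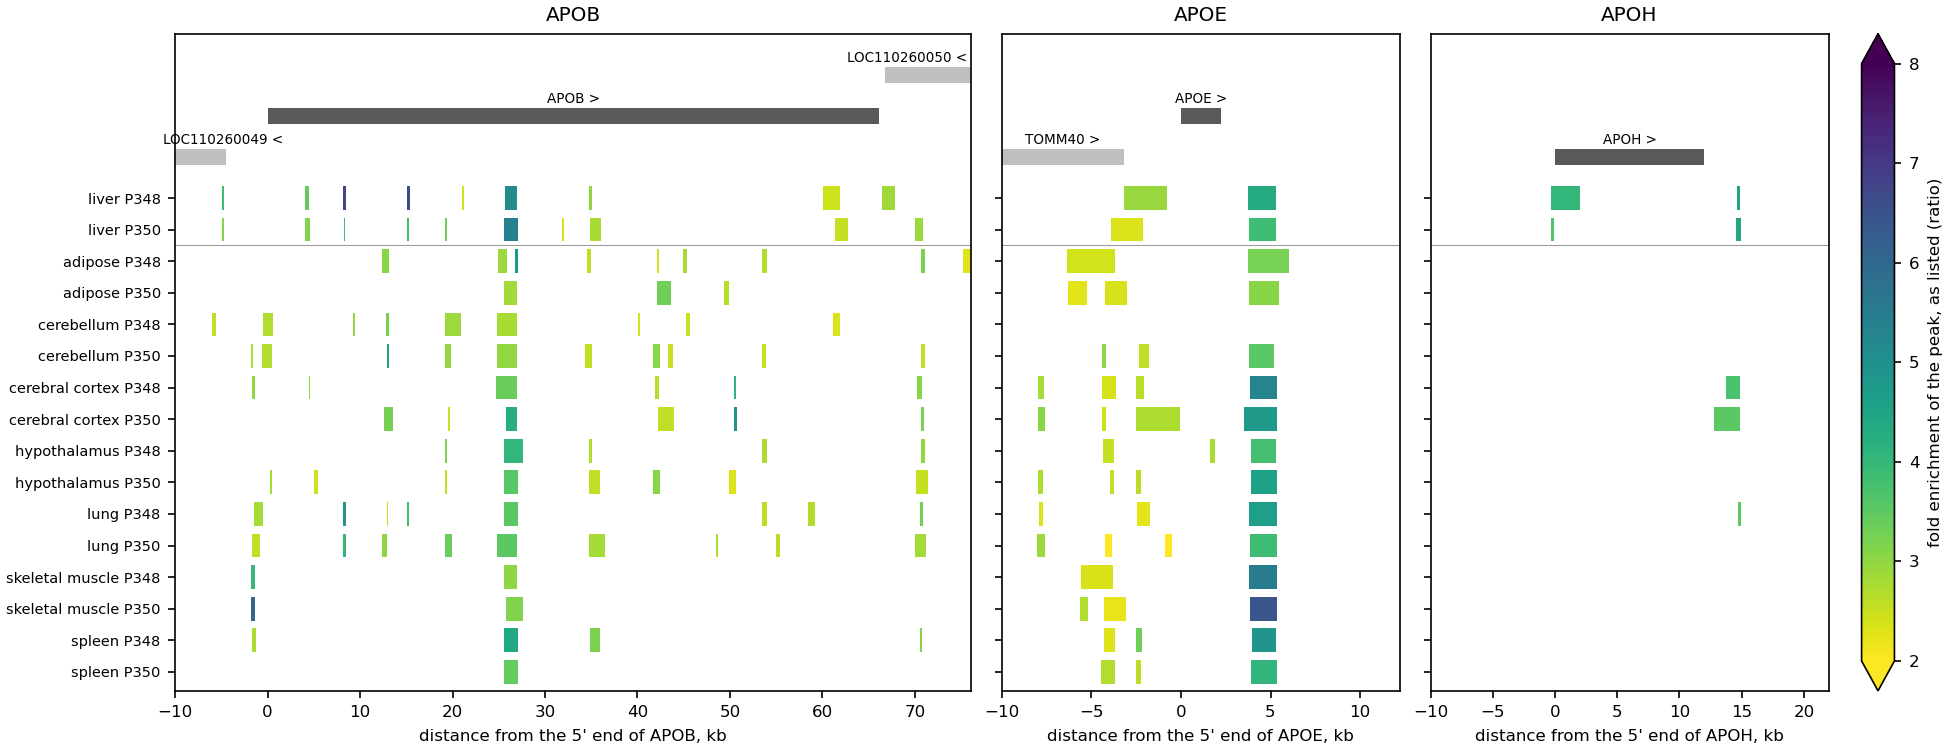
Peaks of 16 libraries (rows, liver on top) in the windows of APOB, APOE and APOH, placed by distance from the 5′ end of the gene in kb (horizontal axis), coloured by the listed fold enrichment (ratio), with genes as grey bars. APOB shows a column filled in all 16 rows near 26 kb, and APOE one near 5 kb that lacks cerebellum of P348. APOH shows a peak in the liver rows alone that covers its start in P348 and lies just before it in P350.

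To test the windows against the spread between animals, log2(density + 1) was fitted with limma over all 19638 genes with tissue as the factor. The contrast was liver minus the mean of the other 7 tissues. APOH passed with a log2 difference of 3.48 ± 0.54 (SE, adjusted p = 0.0203 in limma), and 1 of 7 genes was thus called higher in liver, while 0.382% of all genes were. APOH was 0 in both animals of adipose, cerebellum, hypothalamus, skeletal muscle and spleen, which added no spread of their own to this SE. Its liver libraries, at 40.4 (P348) and 6.90 (P350), lay far apart. The other estimates, each with its SE, were 2.82 ± 0.69 for APOA4 (adjusted p = 0.0981), 1.86 ± 0.48 for APOC3 (0.115), 1.80 ± 0.37 for APOA1 (0.0559) and 1.69 ± 0.49 for APOA5 (0.151). APOB had 1.03 ± 0.27 (adjusted p = 0.120) and APOE 0.98 ± 0.66 (0.532), neither past the limit of 0.05. All 7 differences were positive with a median of 1.80, whereas 66.0% of all genes were positive with a median of 0.18. Without adjustment, 6 of 7 passed a p of 0.05 in this direction, all but APOE, as did 10.9% of all genes.

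Without liver of P348 the APOH difference was 2.28 and was not called (adjusted p = 0.330), and in that fit limma called none of the 19632 genes then tested higher in liver (783 passed an unadjusted p of 0.05). With flanks of 2 kb APOC3 was the 1 gene called, with a difference of 4.68 (adjusted p = 2.04e-05), while APOH had 3.18 (0.0591) and APOA1 0.58. Without cerebellum of P348 or P350 the differences were 1.70 and 1.91 for APOA1, 1.71 and 2.00 for APOC3 and 0.70 and 1.27 for APOE. Without spleen of P348 or P350 the APOA4 difference was 2.55 and 3.10. The number of all genes called higher in liver changed when a library was left out. Over 27 alternatives in limma, the adjusted p ran from 0.00999 to 0.536 for APOA1, 2.04e-05 to 0.685 for APOC3, 0.000153 to 0.620 for APOA4, 0.0367 to 0.943 for APOE and 0.000241 to 0.330 for APOH. The scaling mattered for all genes together. Of the calls, 75 were higher and 32 lower in liver (70.1% higher), but with unscaled peak bases these were 47 and 94 (33.3% higher), and the median difference of all genes moved from 0.18 to -0.16. All 7 differences stayed positive without scaling, with a median of 1.53, while that of APOE turned to -0.21 when numbers of peaks were used. With the animal as a replicate block, 43 genes were called higher and 15 lower, and APOH remained called (adjusted p = 0.0283).

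Differences among the 8 tissues in any direction were also tested. The F test of limma called 6 of 7 windows, all but APOA5 (adjusted p = 0.0681), but it called 67.7% of all genes as well. Adjusted p was 0.00106 for APOH, 0.00542 for APOA1, 0.00691 for APOA4, 0.0222 for APOB, 0.0264 for APOC3 and 0.0375 for APOE. For APOE the tissue that stood lowest was cerebellum, as given above.

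Other genes of lipoprotein metabolism were taken as fixed lists. Of 6 further apolipoprotein genes found in the annotation (APOC1 had no entry), 11 genes of assembly, lipolysis and transfer, 12 of receptors and transporters and 8 of transcription factors, 37 in all, 1 was called higher in liver. It was NR1H4, the bile acid receptor FXR, at 112.8 and 112.9 in liver and 8.88 to 104 elsewhere (log2 difference 1.25 ± 0.22 SE, adjusted p = 0.0334 in limma). The median difference over the 37 genes was 0.48 and 31 were positive. The median was 0.72 for the other apolipoproteins, 0.26 for assembly, lipolysis and transfer, 0.37 for receptors and transporters and 0.95 for transcription factors. Both liver libraries lay above all others for 3 of them, LCAT (the enzyme that esterifies cholesterol on high density lipoprotein), HNF4A and NR1H4. HNF4A, a nuclear receptor of liver and gut, had 98.8 and 126 in liver and 2.49 to 92.3 elsewhere. MTTP, which loads lipid onto apolipoprotein B, was the 1 gene of these lists with a peak near its start in both liver libraries and in no other.

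Of 14 genes of other plasma proteins made by liver (TF had no entry), 5 were called higher in liver, ALB, GC, TTR, FGB and HP, with a median difference of 1.77 over the 14. Both liver libraries exceeded all others for 6 of the 14. The 7 apolipoprotein genes, with a median of 1.80, had differences of the size seen in that list. Whether the shares of calls differed was not tested. The plot of liver differences shows each list.

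**Figure D4:**
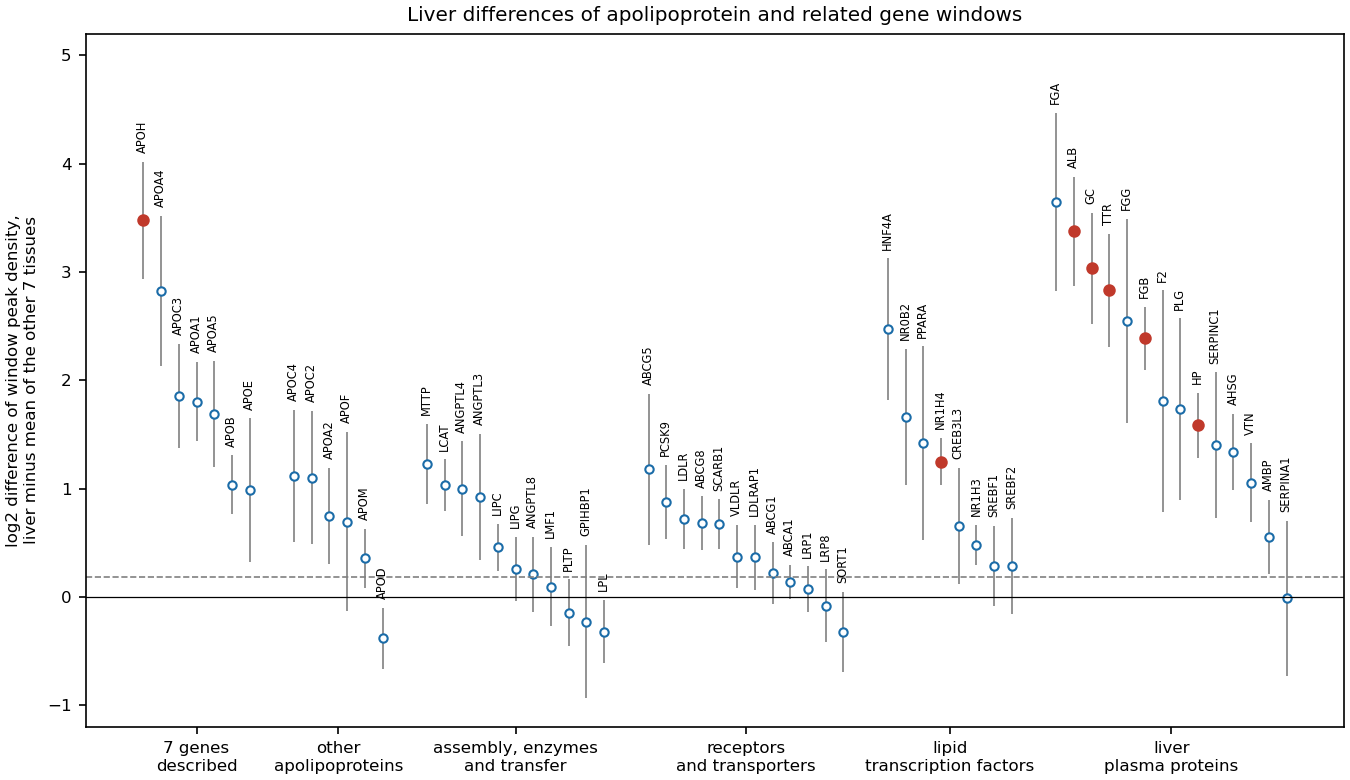
Log2 difference of window peak density, liver minus the mean of the other 7 tissues (vertical axis), for each gene of 6 lists (horizontal axis, ordered by value), with SE as bars. Filled red points passed an adjusted p of 0.05 in limma, open points did not, and the dashed line is the median of all 19638 genes (0.18). APOH is the filled point among the 7 genes described, and NR1H4 the one among the lipoprotein lists.

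Genes elsewhere in the genome whose windows varied most like these were looked up over the 16 libraries, as a description. For APOB the closest were LOC110258310 (Pearson r = 0.892), ABCB11, the bile salt export pump (0.846), and ALB, albumin (0.839), out of 19219 genes compared. The APOA1 locus was closest to NHEJ1, of DNA end joining (0.867), INIP (0.831) and CPEB1 (0.825). APOH was closest to DEFB116, a beta-defensin (0.951), SMPD3, a sphingomyelinase (0.895), and BBOX1, of carnitine synthesis (0.786). APOE was closest to CFAP52 (0.977), SBNO1 (0.976) and ZNF599 (0.972). These correlations used log2(density + 1), in which values of 0 weigh heavily. APOE was 0 in cerebellum of P348 alone, and APOH was 0 in most libraries. The points share libraries and list lengths, and the 3 highest values of all genes compared are given.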

How the data were processed

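The 16 pig libraries were grouped by tissue from their labels, with the animal as replicate. The authors trimmed reads with Trim Galore 0.4.5, aligned them with BWA 0.7.17 to Sscrofa11.1, used SAMtools 1.10 and Picard 2.18.17, per the submitters' processing notes, and called broad peaks per library with MACS2 at a q-value limit of 0.05. A shift of read ends for the transposase is not given in the sources used here. The deposited lists hold a fold enrichment ratio and a −log10 q-value per peak, both averaged over the peak, and hold peaks with a q-value above the limit. The other columns and the 15 cattle lists were not used here.

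All 270 sequence names matched the RefSeq genome of Sscrofa11.1 (annotation release 106), from which promoters and regions were read. Peaks sharing at least 1 bp were merged into regions. Densities were tested with limma 3.58.1 (R 4.3.3) on log2(value + 1), so the differences of windows with low values are understated, with Benjamini-Hochberg adjustment over the 19638 genes with a peak in at least 2 libraries and a threshold of 0.05. Fits were tested on simulated data. The main fit had no block. Samples of the same name come from 1 animal, which pairs them. Over 28 pairs of tissues, deviations of same-named samples correlated with a median of 0.01 (-0.165 to 0.124).

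The members, gene lists and tests were chosen with earlier results of these data known. All 7 genes were named. Other pathway genes were given by counts, with values for those that passed (at most 6), and named after their values were seen where a count was 5 or fewer. Named regions were those open in liver alone, the regions of the APOA1 locus open in both animals of a tissue, and those with the 3 highest folds. The 3 genes with the highest Pearson correlation over 16 libraries, over 1 Mb away and with peaks in at least 4 libraries, were named. Alternatives were pseudocounts of 0.1 and 10, no filter, flanks of 2 and 50 kb, q-value limits of 0.05 and 0.0001, lists of equal length, unscaled bases, numbers of peaks, a TSS distance of 500 bp, the 5′ end of the gene record alone, a replicate block, exact permutation tests and leaving out each library. Motifs DR1 and TATA were added after the sequences were read.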

Additional observations from a re-analysis of the deposited data

How the results depend on the processing

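The count of 1 gene of 7 called higher in liver was 4 with a pseudocount of 10, with a q-value limit of 0.0001 or with numbers of peaks, where 175, 1024 and 189 genes in all were called beside 75. It was 2 without the filter (136 in all) and 0 with flanks of 50 kb (29 in all; 6 of 7 at an unadjusted limma p of 0.05). With flanks of 2 kb it was 1, but APOC3 in place of APOH. By exact permutation tests 6 genes had an unadjusted p of 0.05 or lower, APOH at 0.05 itself, and 4 when liver was exchanged within animals, an alternative added after seeing the data. The count ran from 0 to 4 when a library was left out. The 6 genes that differed among tissues became 2 with lists of equal length (9397 genes in all, beside 13303), and 3 to 7 without a library. The 4 genes with both liver libraries above all others became 2 with flanks of 2 kb, with flanks of 50 kb and with unscaled bases, and 4 to 7 without a library. The share of all genes with that pattern was not counted under these alternatives, nor was the share passing the permutation tests. The 5 genes with a TSS peak in both liver libraries became 2, and the 2 with such a peak in liver alone became 0, with a q-value limit of 0.0001 (62.6% and 0.638% of all genes). The former was 4 with the 5′ end of the gene record alone (70.6%). The APOA1 locus difference was 0.86 with flanks of 50 kb (exact permutation p = 0.15) and 1.39 to 2.00 without a library. With unscaled bases it was 1.35 (exact permutation p = 0.05), and adipose of P348 then lay above both liver libraries. Without either liver library the exact permutation test could not reach 0.05 (smallest p = 0.133). The APOE difference turned to -0.21 with numbers of peaks. Of 189 refitted differences of the 7 genes in 27 alternatives, this was the 1 that changed sign. The causes were not tested, except that fewer libraries limit the permutation test. With the replicate block, counts over the 7 genes were 1 and 6, and 4 within each animal, and no limma call on them changed. With these sensitivities and 2 littermates per tissue, the lists limit what can be resolved, and depth was not taken into account.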
